A study of Mus musculus with 3 samples.

Results

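The genes described here are 42 imprinted genes of the mouse, named as a list of symbols from textbook knowledge of imprinting and not by their values in these data. Of the 42, 40 had a row in the deposited table of 39304 rows, and no row carried the current identifier of Snrpn or Kcnq1ot1. The cells came from glomeruli, the capillary filters of the kidney, of male mice of the C57BL/6 strain, wild type and aged 8 weeks, and how many animals were used is not given in the labels. Glomerular cells were captured singly on a Fluidigm C1 microfluidic chip, where their RNA was copied into cDNA, and qPCR of marker genes assigned each well a cell type. The cDNA of 15 mesangial cells, which hold the capillary loops together, and of 15 endothelial cells, which line them, was combined and split into 3 aliquots, each made into a library. There is thus 1 group, made from 1 cDNA pool, and the SD over the 3 aliquots (n = 3) measures library construction and sequencing, not differences between mice or cells.

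An imprinted gene is expressed mainly or wholly from the copy inherited from 1 parent. The choice is marked by DNA methylation laid down in the egg or sperm at a control region, and most imprinted genes lie in clusters that share such a region. Many act on growth of the fetus and placenta, in broad terms with paternally expressed genes promoting growth and maternally expressed genes restraining it, and many are turned down after birth. Some keep the allele bias in particular tissues, such as placenta or neurons, and use both copies elsewhere. Inbred C57BL/6 chromosomes carry no sequence differences by which reads of the parental copies could be told apart. The unit FPKM, the reads of a gene scaled to its length in kilobases and to 1000000 reads of the library, therefore sums both copies, and the parent named for a gene below is background, not a measurement.

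The library totals by which FPKM was scaled were 9141422, 10427635 and 10976563 reads in aliquots 1, 2 and 3. They were recovered from the steps between low FPKM values. Which reads such a total counts is not given, so it need not equal the reads sequenced. Defining markers of the pooled cell types were present: 10 of 10 mesangial and 10 of 10 endothelial markers reached 1 FPKM in every aliquot. Of 7 markers of podocytes, the glomerular epithelial cells left out of the mixture, 5 also did, from 29.6 FPKM for Thsd7a to 101 FPKM for Wt1, and none of the 7 was at 0. The podocyte markers summed to 273 to 292 FPKM over the aliquots, against 2627 to 2678 FPKM for the endothelial and 9048 to 9479 FPKM for the mesangial markers. All 6 tubule markers and 7 of 8 blood cell markers were listed at 0, and of 5 fibroblast markers Pdgfra was detected and the others, such as Dcn, were at 0. Which cells made a given imprinted transcript cannot be told apart in a pool, nor can few cells with much RNA from many cells with little, and the part of podocyte RNA was not tested. Genes that most cells use, such as Mrps22, Cox20 and Srsf4 (chosen after their values were seen), were listed at 0 in every aliquot. A zero is therefore reported as listed, not as absence of the RNA.

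Of the 40 imprinted genes with a row, 16 (40%) were detected, meaning that no aliquot had less than 1 FPKM. The same rule was met by 36.5% of all 21226 protein-coding rows and by 21.7% of all rows, so the share of imprinted genes detected lay near that of protein-coding genes. A further 3 were above 0 without reaching 1 FPKM, and 21 were listed at 0 in every aliquot. The median over the 40 genes was 0 FPKM, and over all protein-coding rows it was also 0 FPKM. Among the detected genes the median was 45.0 FPKM, and among all detected protein-coding rows it was 21.0 FPKM. No test was made of either difference, since the members are no sample of genes and the libraries form 1 group.

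**Figure D1:**
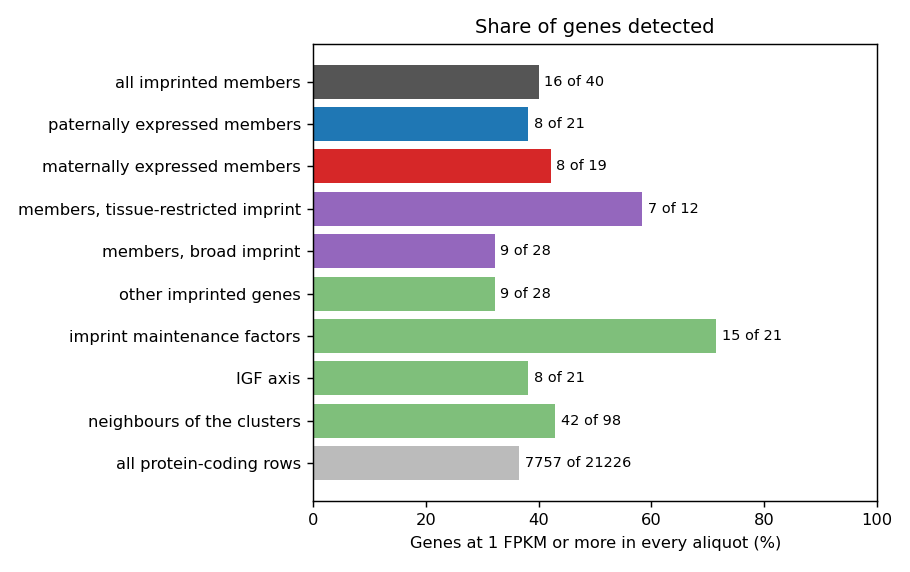
Share of genes at 1 FPKM or more in every aliquot (horizontal axis, percent) for the imprinted genes, their classes by parent and by breadth of imprinting, other gene lists and all protein-coding rows; numbers beside the bars give genes detected of genes in the table. The bar of all imprinted genes (16 of 40) and that of all protein-coding rows (7757 of 21226) lie close together. The list of imprint maintenance factors, which also holds genes that set or remove DNA methylation, has the longest bar (15 of 21).

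The share detected was similar for the parental classes. Of 21 paternally expressed genes 8 were detected (38.1%), with a median of 32.0 FPKM among those detected, and 13 were listed at 0. Of 19 maternally expressed genes 8 were detected (42.1%), with a median of 45.0 FPKM, 3 were above 0 and 8 were listed at 0. A larger gap lay between classes of breadth. The genes were classed as restricted where the allele bias is known mainly from placenta, brain, heart or a single isoform, and as broad otherwise. Of the 12 restricted genes 7 were detected (58.3%), against 9 of the 28 broad ones (32.1%). All protein-coding rows had 36.5%. Maternally expressed genes of broad imprinting had 2 of 9 detected, Igf2r and Meg3, and those of restricted imprinting 6 of 10. Paternally expressed genes had 7 of 19 broad ones and 1 of 2 restricted ones detected. Most restricted genes were thus maternally expressed, so breadth and parent cannot be told apart here. These counts are descriptive, and the classes were assigned from knowledge with earlier results of these data known.

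The highest imprinted transcript was Cd81 (ENSMUSG00000037706, chromosome 7, 143052739 to 143067934, plus strand, GRCm38), a tetraspanin of the cell surface whose maternal bias is known from placenta. It had 947, 965 and 965 FPKM in aliquots 1, 2 and 3, a mean of 959 ± 10.5 FPKM that stood at rank 58 of all rows. Impact (ENSMUSG00000024423, chromosome 18, 12955852 to 12992950, plus strand), an inhibitor of the stress kinase Gcn2 that is expressed from the paternal copy in mice, followed with 669, 671 and 655 FPKM, a mean of 665 ± 8.82 FPKM at rank 92. The 3 values of each gene lay close together and the ranges of the genes did not overlap. The order of these 2 rests on gene length, however. Per kilobase of the longest annotated transcript the mean was at least 606 FPKM for Impact and at least 575 FPKM for Cd81.

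The third was Copg2, a subunit of the coatomer that coats transport vesicles, with 124, 138 and 132 FPKM. Its coding partner in the cluster, Mest, is described with the pairs. Inpp5f, a phosphoinositide phosphatase of endosomes whose paternal bias concerns a short brain isoform, had 80.6, 82.5 and 85.7 FPKM. Plagl1 (ENSMUSG00000019817, chromosome 10, 13060504 to 13131694, plus strand), a zinc-finger factor that restrains proliferation, had 80.9, 80.3 and 76.4 FPKM, and the ranges of Inpp5f and Plagl1 overlapped. Ube3a, the ubiquitin ligase that is maternally expressed in neurons, had 65.8, 70.9 and 68.3 FPKM, below both in every aliquot.

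Below them lay 3 genes between 40 and 50 FPKM. Sgce, the epsilon-sarcoglycan of the membrane complex that links cytoskeleton and matrix, had 49.6, 49.4 and 48.0 FPKM. Igf2r (ENSMUSG00000023830, chromosome 17, 12682406 to 12769664, minus strand), the receptor that carries IGF2 and mannose 6-phosphate enzymes to lysosomes, had 48.0, 45.6 and 43.4 FPKM. Blcap, a small protein linked to growth arrest, had 45.5, 40.9 and 46.4 FPKM. Sgce was the highest of the 3 in every aliquot, by little in aliquots 1 and 3, and the ranges of Igf2r and Blcap overlapped. Herc3, a ubiquitin ligase of the HERC family, had 16.0, 13.7 and 16.8 FPKM and Ndn, a MAGE-family protein that limits cell division, 15.1, 14.3 and 15.9 FPKM, again with overlapping ranges. These orders also rest on gene length. Per kilobase of the longest transcript Inpp5f had 43.1 FPKM, Copg2 37.5 FPKM, Ube3a 35.4 FPKM, Blcap 20.2 FPKM, Sgce 16.6 FPKM, Plagl1 14.7 FPKM, Igf2r 13.1 FPKM and Ndn 3.37 FPKM. With lengths as recovered, Plagl1 was below Blcap and Sgce on that scale, and Ndn stayed above the detection limit. A recovered length may be too short by a whole factor that can differ between genes. Ndn, for example, has 1 annotated transcript of 3694 bases and a recovered length of 826 bases. These values are therefore lower bounds, and their order is not settled.

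The lowest detected genes included the pair of long noncoding RNAs that were detected. Airn, the noncoding RNA that silences the paternal Igf2r copy, had 8.53, 11.6 and 10.4 FPKM. Zrsr1, an intronless gene for a splicing factor related to U2af1, had 7.65, 6.92 and 7.20 FPKM. Airn was higher than Zrsr1 in every aliquot. Per kilobase of the longest transcript, with lengths as recovered, the order turned, with 5.89 FPKM for Airn and 7.25 FPKM for Zrsr1. Peg3, a large zinc-finger protein, had 3.45, 3.71 and 3.38 FPKM, the noncoding RNA Meg3 had 2.47, 1.92 and 2.06 FPKM, and Commd1, a copper and membrane traffic regulator, had 1.60, 2.11 and 2.33 FPKM. The ranges of Meg3 and Commd1 overlapped. Per kilobase of their longest transcripts, with lengths as recovered, both fell under the limit, at 0.399 and 0.610 FPKM.

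**Figure D2:**
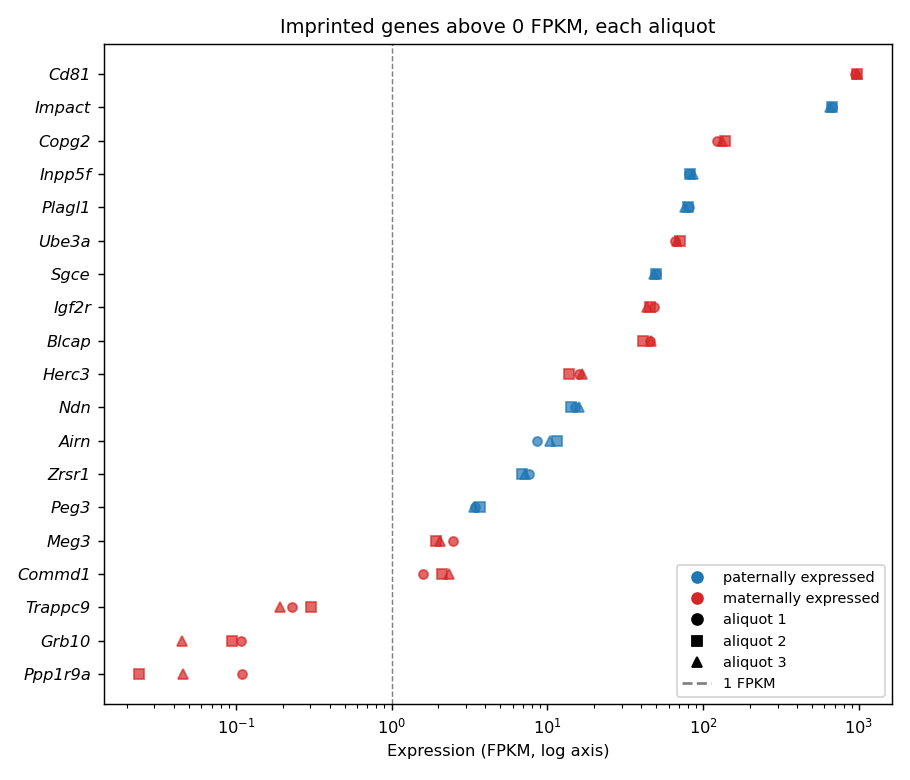
FPKM of the 19 imprinted genes above 0 (horizontal log axis), ordered by mean, with 1 symbol per aliquot, colour by the parent known to express the gene and a dashed line at 1 FPKM. The symbols of a gene lie almost on each other from Cd81 down to Sgce and spread visibly for Commd1, Trappc9, Grb10 and Ppp1r9a, which rest on few reads.

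Genes above 0 without reaching 1 FPKM were all maternally expressed. Trappc9, a subunit of a vesicle tethering complex, had 0.231, 0.304 and 0.192 FPKM, from at least 28 reads in all. Grb10, an adaptor that dampens insulin and IGF1 receptor signalling, had 0.108, 0.0950 and 0.0451 FPKM, from 5 reads. Ppp1r9a, which encodes the actin-binding neurabin, had 0.110, 0.0241 and 0.0458 FPKM, from 7 reads. Trappc9 was above Grb10 and Ppp1r9a in every aliquot, whereas the ranges of Grb10 and Ppp1r9a overlapped.

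The 21 genes listed at 0 included several regulators of fetal growth. Among these were the fetal growth factor Igf2, the noncoding RNA H19 of the same cluster, the Notch-pathway ligand-like Dlk1, the thyroid hormone deiodinase Dio3, the pleckstrin-domain gene Phlda2 and the hydrolase-like Mest. In the GENCODE M21 annotation Igf2 shares 3694 of its 5723 exon bases (64.5%) with other genes. Of the shared bases, 3596 are shared with Gm49394 on the same strand. How reads from shared bases were assigned was not tested, so the level of Igf2 is left undecided by its zero. The retrotransposon-derived placental genes Peg10 and Rtl1 were listed at 0, as were the noncoding RNAs Rian and Mirg. So were Usp29, Zim1, Asb4, Ddc, Magel2, Mkrn3, Nnat, Nap1l5, Slc22a18, Ascl2 and Zdbf2.

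Clusters were next compared, since members of a cluster share control regions. The 42 genes fall into 17 clusters, and 13 of these held at least 1 detected gene. Both members were detected in the Igf2r-Airn and Zrsr1-Commd1 clusters, with the limits of overlapping genes described with the pairs. In the H19-Igf2 cluster (chromosome 7, 142575529 to 142666816) both were listed at 0, and so was the single member Zdbf2 on chromosome 1. In the Dlk1-Dio3 cluster (chromosome 12, 109452823 to 110281097) Meg3 was the only one of 6 members detected. The Kcnq1ot1 cluster had 1 of 4 members with a row detected, Cd81, while Phlda2, Slc22a18 and Ascl2 were listed at 0. The Snrpn-Ube3a cluster had 2 of 4, Ndn and Ube3a, with Magel2 and Mkrn3, which lie beside Ndn, at 0. In the Grb10 and Trappc9 clusters no member was detected.

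Snrpn, which encodes a spliceosomal Sm protein, overlaps a row of another identifier. ENSMUSG00000000948 is named Gm38393 in the GENCODE M21 annotation and shares 589 exon bases with Snrpn on the same strand. It had 15.1, 15.5 and 15.7 FPKM, a mean of 15.4 ± 0.318 FPKM close to the 15.1 ± 0.801 FPKM of Ndn. How the authors' annotation named that row is not given in the sources used here, so it is not counted among the members.

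**Figure D3:**
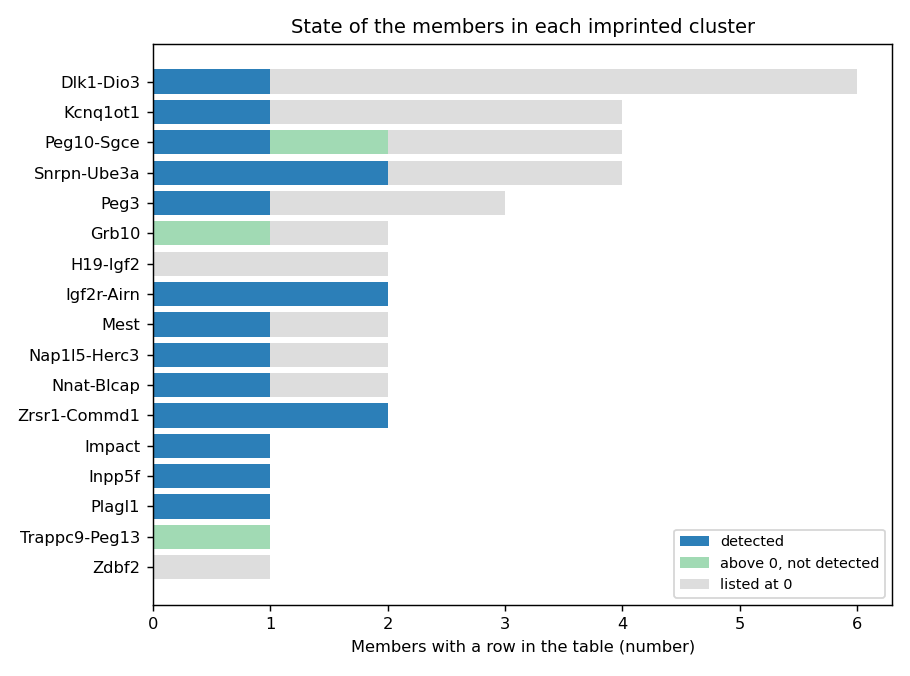
Number of imprinted genes with a row in the table (horizontal axis) in each of 17 clusters, split into genes detected, genes above 0 but not detected and genes listed at 0. The Dlk1-Dio3 bar, of 6 genes, is grey but for 1 detected gene, and the H19-Igf2 and Zdbf2 bars are wholly grey.

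Genes around the clusters gave a local background. For each cluster the 3 nearest protein-coding genes on each side were taken, leaving out the 42 genes and the further imprinted genes listed for comparison, which gave 98 genes. Some that were kept, such as Casd1, Gpr1 and Ago2, have also been reported with allele bias in mice, so the 98 are not free of imprinted genes. Of these 42 were detected (42.9%), against 40% of the imprinted genes themselves. The highest were Mcmbp beside Inpp5f with 481 ± 7.38 FPKM, Klf13 beside the Snrpn-Ube3a cluster with 391 ± 5.62 FPKM, Tial1 with 283 ± 3.51 FPKM and Eef1b2 beside Zdbf2 with 176 ± 1.65 FPKM. No neighbour of the Peg3 or Grb10 cluster was detected (0 of 6 each), and 5 of the 6 neighbours of Inpp5f were.

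Several imprinted genes lie inside a host gene or start back to back with a partner, and these pairs were compared within each aliquot. The divergent pairs were alike in that 1 gene was detected and its partner listed at 0. The annotated starts of Sgce and Peg10 are separated by 98 bases on chromosome 6. Sgce had 48.0 to 49.6 FPKM and Peg10 was listed at 0. Those of Peg3 and Usp29 are separated by 146 bases on chromosome 7, and Peg3 had 3.38 to 3.71 FPKM while Usp29, a ubiquitin protease gene, was listed at 0. The stretch between the RefSeq starts of Peg3 and Usp29 (GRCm38.p6, chr7:6730420-6730582, 163 bases, plus strand) is shown because the starts of a detected and an undetected gene face away from each other across it. Transcription of Usp29 runs to the right and that of Peg3 to the left. Capitals mark its 5 CpG dinucleotides, the sites at which imprinted methylation is laid.

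Peg3-Usp29: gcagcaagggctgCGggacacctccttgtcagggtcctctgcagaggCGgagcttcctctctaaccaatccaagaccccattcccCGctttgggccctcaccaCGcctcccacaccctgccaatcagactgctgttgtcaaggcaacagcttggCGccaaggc

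Nested genes differed among themselves. Zrsr1 lies inside Commd1 on the opposite strand (chromosome 11, 22972005 to 22976496, inside 22896136 to 22982382) and was higher than its host in every aliquot. The log2 ratio of Zrsr1 to Commd1, with 1 FPKM added to each, was 1.46 ± 0.237 (SD over aliquots), and 2.36 with lengths of the longest transcript. Exons of these genes share 412 bases in the annotation, so some reads could belong to either unless strand was used, which the sources used here do not state. Nap1l5, an intronless gene for a nucleosome assembly protein-like factor, was listed at 0 inside Herc3, and Nnat, which encodes the small membrane protein neuronatin, was listed at 0 inside Blcap. A comparable pair outside the 42 genes, the translation factor gene Mcts2 inside H13, had 6.35, 6.65 and 6.43 FPKM for Mcts2, against 9.12, 9.86 and 9.67 FPKM for H13. The log2 ratio of Mcts2 to H13 was -0.50 ± 0.0304, and it turned to 0.44 with lengths of the longest transcript.

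Opposite-parent partners could be compared where neither was at 0. Airn overlaps Igf2r on the opposite strand over 28354 bases but shares no annotated exon base with it. The log2 ratio of Airn to Igf2r was -2.07 ± 0.256, with Airn lower in every aliquot, and was -1.04 with lengths of the longest transcript. Unspliced Airn RNA runs through exons of Igf2r, so without strand its reads cannot be told apart from those of Igf2r there. The start of Airn in turn lies inside Igf2r, outside its exons. Without strand, reads of unspliced Igf2r RNA there could be counted as Airn. How much of the Airn value comes from such reads was not tested, which limits both its detection and the ratio. In the Mest cluster Copg2 was detected and Mest was listed at 0, and the pair shares 912 exon bases on opposite strands. The log2 ratio of Ppp1r9a to Sgce was -5.56 ± 0.0565 with 1 FPKM added, and -8.30 with 0.1 FPKM added. Ppp1r9a rests on 4, 1 and 2 reads in aliquots 1, 2 and 3. Its values lie far under the added 1 FPKM, which damps that SD.

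**Figure D4:**
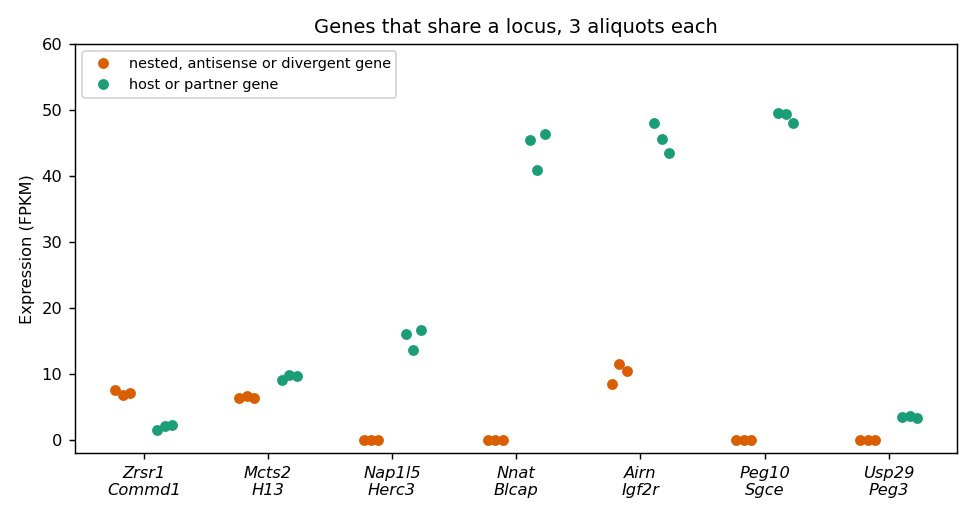
FPKM in each aliquot (vertical axis) for 7 pairs of genes that share a locus, with the nested, antisense or divergent gene on the left of each pair and its host or partner on the right. Zrsr1 lies above Commd1, Mcts2 and Airn lie below their partners, and Nap1l5, Nnat, Peg10 and Usp29 lie at 0.

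Promoter sequences were examined for features of imprinted control. RefSeq windows (GRCm38.p6) of 300 bases, from 250 before to 50 after each start, were available for 36 of the 42 genes, 51 windows in all, since some genes have several starts. The hexamer TGCCGC, the motif bound by the methylation-protecting factor ZFP57, was searched on both strands. It occurred in 13 of 51 member windows (25.5%), against 11.6% of 32851 windows of all genes. Member windows also held more CpG, with a median observed to expected ratio of 0.591, against 0.384 for all. Among windows with a ratio of at least 0.6 the hexamer occurred in 11 of 25 (44%) of the members' and in 24.3% of all. Shares by detection were close, since 4 of 16 windows of detected genes (25%) held it, and 7 of 26 windows of genes listed at 0 (26.9%). Other windows of a control region were not searched, and a match is a description of these letters, not of binding.

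The 250 bases before a start are printed for 4 paternally expressed genes as 2 contrasts of a detected and an undetected gene. The first is Plagl1 (chr10:13090582-13090831, plus strand), which was detected, and Mest (chr6:30737800-30738049, plus strand), which was not. The second is Zrsr1 (chr11:22971755-22972004, plus strand) and Nap1l5 (chr6:58907127-58907376, minus strand), a detected and an undetected nested gene. Capitals mark the hexamer or its reverse complement GCGGCA, which occurs 1 time for Plagl1, 2 times for Mest, 0 times for Zrsr1 and 1 time for Nap1l5. Mest has 3 windows, of which 2 hold the hexamer, and a window with the most matches was printed. Its count is thus a maximum, whereas Plagl1, Zrsr1 and Nap1l5 have 1 window each.
Plagl1: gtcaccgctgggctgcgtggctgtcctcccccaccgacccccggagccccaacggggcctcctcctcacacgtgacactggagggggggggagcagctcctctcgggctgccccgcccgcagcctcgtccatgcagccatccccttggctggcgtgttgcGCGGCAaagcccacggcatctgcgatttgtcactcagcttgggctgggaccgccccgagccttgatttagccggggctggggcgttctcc
Mest: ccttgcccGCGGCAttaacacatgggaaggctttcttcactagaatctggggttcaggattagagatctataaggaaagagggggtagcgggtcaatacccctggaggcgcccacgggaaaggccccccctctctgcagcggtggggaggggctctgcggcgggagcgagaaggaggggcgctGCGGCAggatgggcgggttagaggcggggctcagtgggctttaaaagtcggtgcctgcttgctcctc
Zrsr1: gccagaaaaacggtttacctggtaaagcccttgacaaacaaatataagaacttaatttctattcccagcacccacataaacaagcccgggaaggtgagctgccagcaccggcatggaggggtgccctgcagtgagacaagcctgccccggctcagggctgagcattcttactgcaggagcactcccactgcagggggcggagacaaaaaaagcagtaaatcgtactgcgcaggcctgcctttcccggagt
Nap1l5: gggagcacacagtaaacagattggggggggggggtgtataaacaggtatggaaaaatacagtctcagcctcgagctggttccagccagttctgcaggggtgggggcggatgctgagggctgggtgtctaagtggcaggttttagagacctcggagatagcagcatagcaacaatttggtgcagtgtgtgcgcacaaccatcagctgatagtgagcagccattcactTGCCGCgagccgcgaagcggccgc

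A list named imprint maintenance, and the proteins that imprinted growth genes act on, were measured beside the imprinted genes. The list is wider than its name, since it also holds genes that set DNA methylation anew or remove it. Of the 21 genes of this list 15 were detected (71.4%), against 36.5% of all protein-coding rows. The highest were the chromatin remodeller Atrx with 508 FPKM, Smchd1, a structural protein that helps silence imprinted clusters, with 210 ± 5.04 FPKM, and the cohesin genes Smc1a with 169 ± 4.65 FPKM and Smc3 with 89.9 ± 2.22 FPKM. Their distances rest on gene length. Per kilobase of the longest transcript, with lengths as recovered, Atrx had 78.6 FPKM, Smchd1 74.6 FPKM, Smc1a 53.2 FPKM and Smc3 37.2 FPKM. Dnmt3b, Dnmt3l, Dppa3 and the maintenance cofactor Uhrf1 were listed at 0 in every aliquot. Named after their values were seen, Zfp57 had 60.8, 58.6 and 63.0 FPKM, and its corepressor Trim28 had 5.68, 6.30 and 7.15 FPKM.

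Of 21 genes of the insulin-like growth factor axis 8 were detected (38.1%), near the 36.5% of all protein-coding rows, and 4 at a limit of 5 FPKM. The highest were the binding proteins Igfbp5 (950 ± 11.8 FPKM), which is also counted among the mesangial markers, Igfbp7 (572 ± 4.70 FPKM) and Igfbp4 (214 ± 0.367 FPKM), and the cation-dependent mannose 6-phosphate receptor M6pr (49.1 ± 1.32 FPKM). M6pr, which shares its enzyme cargo with Igf2r, had 48.5, 48.1 and 50.6 FPKM and was above Igf2r in every aliquot. The ligand Igf1 and the RNA-binding proteins Igf2bp1 and Igf2bp3 were listed at 0, as was Igf2 itself. The overlap of Igf2 with Gm49394 described above applies to its zero here too. The receptor Igf1r, named after its values were seen, averaged 4.97 ± 0.679 FPKM.

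Of 31 further imprinted genes fixed as a list, 28 had a row and 9 were detected (32.1%). The highest were Pon2 (42.2 ± 2.50 FPKM) and Pon3 (27.2 ± 1.46 FPKM), paraoxonases that lie between Ppp1r9a and Asb4 in the Peg10-Sgce cluster, the histone chaperone gene Nap1l4 (40.6 ± 1.74 FPKM) and Cdkn1c (14.0 ± 0.597 FPKM). Cdkn1c, whose protein inhibits cyclin-dependent kinases, lies within the Kcnq1ot1 cluster, where Cd81 was the only member detected. Atp10a, Begain, Calcr and the matrix proteoglycan gene Dcn were listed at 0 in every aliquot.

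Agreement of the aliquots was examined last. Over the 16 detected genes the coefficient of variation ran from 1.09% for Cd81 to 18.6% for Commd1, with a median of 5.05%, against 4.69% for all detected rows. Reads of each gene were then tested for spread beyond counting error by chi-square, with expected reads in proportion to library totals and Benjamini-Hochberg adjustment over all 9120 rows of at least 30 reads. At an adjusted threshold of 0.05 this called 99 rows, 1.09%, and without aliquot 1 it called 2 of 8847 rows. Of the 16 imprinted genes tested, 0 were called. Without adjustment 3 of them passed 0.05, namely Ube3a, Copg2 and Impact. The reads behind these values ran from at least 85 over the aliquots for Commd1 to at least 69648 for Impact. Where recovered reads are too low by a common factor, the chi-square is too low as well, so the test can miss spread.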

How the data were processed

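Values were deposited by the authors as FPKM, per kilobase of gene and per 1000000 reads, in 1 column per aliquot, with no scaling between aliquots. GRCm38, TopHat2 2.0.12 and HTSeq 0.6.1 are listed, per the submitters' processing notes; no source used here gives the settings, strand handling, annotation release or gene lengths. Names and coordinates came from GENCODE M21 (GRCm38), which named 37607 of 39304 rows, and promoter sequences from RefSeq (GRCm38.p6).

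Low FPKM values step in multiples of 1 read. The most frequent value of 1 read among rows under 0.5 FPKM gave library totals, and reads followed from the shortest length in bases for which the reads of all 3 aliquots were whole within 0.0001. A multiple within 1 base of the mean transcript length was preferred. Lengths were found for 11142 of 11142 rows above 0. The reads of a gene, and its value per longest transcript, may be too low by a common factor. The reads cover counting error only, since amplified cDNA is counted. No count model was run, since the unit is FPKM. Recovery and the chi-square test were tested on simulated data.

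Detection meant 1 FPKM in every aliquot. Lists and pairs were described by counts and by log2 ratios with 1 FPKM added. All 42 genes are named; of other lists up to 4 highest detected and up to 4 undetected genes are named, and the text marks any other gene as picked afterwards. Members, classes and lists were chosen with earlier results of these data known. Alternatives were other detection limits, a pseudocount of 0.1 FPKM, longest-transcript lengths, other read minimums and leaving out each aliquot. Python 3.11.15, pandas 2.3.3 and scipy 1.17.1 were used. The aliquots share 1 cDNA pool, so p-values measure technical spread.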

Additional observations from a re-analysis of the deposited data

How the results depend on the processing

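Counts of detected imprinted genes, of each parent and breadth class, of the other lists and of neighbours stayed within 1.5 times under every detection limit, with each aliquot left out and with longest-transcript lengths, except that the IGF axis fell to 4 of 21 genes at 5 FPKM. Of 100 alternative values, 89 kept within that limit or, for medians and ratios, within 1 SD, as did every value with an aliquot left out. Imprinted genes detected were 13 at 5 FPKM and 14 with longest-transcript lengths. Those lengths for classes, lists and neighbours, and all alternatives for breadth, were chosen after seeing the data. Medians taken over genes above 0 were 15.5 FPKM for all imprinted genes, 32.0 FPKM for paternal and 15.5 FPKM for maternal ones. With a pseudocount of 0.1 FPKM the log2 ratios were 1.81 for Zrsr1 to Commd1, -0.55 for Mcts2 to H13 and -8.30 for Ppp1r9a to Sgce. With longest-transcript lengths they were 2.36 for Zrsr1 to Commd1, -1.04 for Airn to Igf2r, -4.11 for Ppp1r9a to Sgce and 0.44 for Mcts2 to H13, a reversal made by the change of lengths alone. The chi-square test called 0 imprinted genes at each read minimum and with any aliquot left out, with 2 or 3 at an unadjusted p under 0.05. No paired analysis was possible because the 3 aliquots form 1 group. Depth limits Ppp1r9a and Grb10, at 7 and 5 reads.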

Other observations

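Other rows inside the imprinted clusters were mostly at 0, as were 71.7% of all 39304 rows. The rows were not compared by type of gene, and those of the Dlk1-Dio3 span include microRNA precursors. Of 89 further rows within the Dlk1-Dio3 span 1 was above 0, the noncoding RNA gene B830012L14Rik, with 19.4, 18.9 and 18.2 FPKM in aliquots 1, 2 and 3. It was higher in every aliquot than Meg3, which had 2.47, 1.92 and 2.06 FPKM, and it lies between Rian and Mirg on the same strand (chromosome 12, 109695586 to 109702587), both of which were listed at 0. Its reads, at least 2586 in all, exceeded the 176 of Meg3. Within the Snrpn-Ube3a span 2 of 236 further rows were above 0, Gm38393 and the pseudogene Ube2nl, the second with 1 read in aliquot 2. These genes were chosen after their values were seen.

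Rows of microRNA precursors from the H19, Igf2, Mest and Dlk1-Dio3 loci were listed at 0 in all aliquots, 30 of 30 that had a row. The annotated precursors are short, from 63 bases for Mir495 to 124 bases for Mir433. Mir675 shares 84 exon bases with H19 on the same strand. Whether RNAs this short enter such libraries was not tested, so no conclusion is drawn from these zeros.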
